A study of Homo sapiens with 8 samples.

Results

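The endogenous HoxC5 sites of PC-3 cells that had no counterpart once HoxC5 was overexpressed were the subject here. The peak intervals of both endogenous HoxC5 libraries were merged, and the merged intervals on chromosomes 1 to 22 and X that shared no base with any peak of the overexpressed HoxC5 library were kept. They numbered 598 of 2555 merged endogenous sites, or 23.4%, and are called absent sites. The other 1957 are called retained sites, and 5 merged intervals on chromosome Y were left out. The absent sites were thus selected on the HoxC5 peak lists themselves, so their HoxC5 values are given as a description, without tests.

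The libraries were chromatin immunoprecipitation sequencing (ChIP-seq) of PC-3, an established line from a human prostate cancer. Unmodified cells were precipitated with an antibody against HoxC5 in 2 replicates, cells carrying a lentiviral Flag-tagged HoxC5 with the same antibody in 1 library, and cells carrying a lentiviral Flag-tagged Pbx4 with an antibody against Pbx4 in 1 library. The HoxC5 antibody does not separate the tagged from the cells' own protein, and neither overexpressed condition has a second library. The endogenous lists held 2525 and 170 peaks, the overexpressed HoxC5 list 67196 and the Pbx4 list 153620.

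Hox proteins are homeodomain transcription factors that set positional identity along the body axis, and HoxC5 belongs to the HOXC cluster. On their own they recognise short AT-rich words, and they gain specificity by pairing with TALE homeodomain cofactors of the Pbx and Meis families. In cancer lines, ChIP-seq peaks of such factors are often found at open promoters and enhancers, where words of other factors are also frequent. Among those are the AP-1 word of Fos and Jun proteins, the E-box of basic helix-loop-helix and zinc-finger factors such as Snail and ZEB, and the GC box of Sp and KLF factors.

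The sequences of 6 absent sites follow, because they show the words that the later counts turn on. They are hg19 reference sequence, plus strand, 5′ to 3′, with capitals on each E-box (CAGGTG or its complement CACCTG), GC box (CCCCGCCC or GGGGCGGG) and AP-1 word (TGACTCA or TGAGTCA). A word match is a description of the letters, not evidence that a factor sat there. The first 3 hold E-boxes. They lie in an intron of APOLD1 (300 bases of the site, chr12:12929293-12929592), between genes near SLC12A7 (chr5:1130711-1130956) and in an intron of ACSS1 (chr20:24998085-24998279). The next pair, in introns of SNED1 (chr2:242003498-242003716) and COL18A1 (chr21:46825404-46825583), holds GC boxes. The last is an intergenic site with the AP-1 word (chr17:6126646-6126832).
APOLD1 intron: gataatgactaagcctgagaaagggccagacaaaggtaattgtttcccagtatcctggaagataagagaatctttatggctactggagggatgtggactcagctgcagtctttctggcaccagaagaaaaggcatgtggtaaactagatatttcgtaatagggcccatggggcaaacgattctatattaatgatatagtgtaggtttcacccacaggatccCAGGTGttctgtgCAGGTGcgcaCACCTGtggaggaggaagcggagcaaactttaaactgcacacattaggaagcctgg
near SLC12A7: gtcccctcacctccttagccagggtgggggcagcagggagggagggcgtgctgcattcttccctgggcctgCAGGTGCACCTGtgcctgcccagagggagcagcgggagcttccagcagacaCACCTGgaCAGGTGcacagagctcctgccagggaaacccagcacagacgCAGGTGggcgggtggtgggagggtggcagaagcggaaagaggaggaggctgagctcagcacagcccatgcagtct
ACSS1 intron: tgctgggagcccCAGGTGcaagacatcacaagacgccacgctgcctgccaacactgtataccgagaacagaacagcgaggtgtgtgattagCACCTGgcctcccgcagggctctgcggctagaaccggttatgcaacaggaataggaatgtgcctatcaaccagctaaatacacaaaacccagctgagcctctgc
SNED1 intron: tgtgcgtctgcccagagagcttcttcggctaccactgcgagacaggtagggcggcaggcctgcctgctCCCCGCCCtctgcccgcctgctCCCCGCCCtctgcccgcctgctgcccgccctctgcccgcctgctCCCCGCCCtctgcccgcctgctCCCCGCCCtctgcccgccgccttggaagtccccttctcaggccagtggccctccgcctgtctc
COL18A1 intron: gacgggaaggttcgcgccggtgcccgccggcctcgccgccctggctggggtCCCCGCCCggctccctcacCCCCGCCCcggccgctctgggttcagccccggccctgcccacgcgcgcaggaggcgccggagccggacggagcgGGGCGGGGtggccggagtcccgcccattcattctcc
chromosome 17 intergenic: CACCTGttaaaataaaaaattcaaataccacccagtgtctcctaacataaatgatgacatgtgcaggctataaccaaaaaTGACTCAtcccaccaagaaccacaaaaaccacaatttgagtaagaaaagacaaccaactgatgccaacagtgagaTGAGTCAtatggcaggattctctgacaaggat

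Most absent sites were called in 1 endogenous replicate. Of the 598, 574 came from replicate 1 alone, 6 from replicate 2 alone and 18 (3.01%) from both, while 117 retained sites (5.98%) were in both. The fold enrichment over background that the peak caller assigned in replicate 1 had a median of 5.22 at absent and 4.93 at retained sites. The corresponding −log10 q had a median of 4.16 at absent and 5.25 at retained sites, with highest values of 68.1 and 118.0. Absent sites were therefore not confined to the weakest peaks: ordered by q over both replicates and divided into 5 equal classes, they made up 11.9% of the class of lowest q, then 19.2%, 28.6%, 29.4% and 28.0% of the others. Peaks called at a q above 0.01, where the overexpressed list has none (its highest q is 0.00997, against 0.0398 in endogenous replicate 1), were the best call at 34 absent sites (5.69%) and 123 retained sites (6.29%). Absent intervals had a median width of 176.5 bp and retained intervals 207 bp.

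Absence meant that no peak was listed, not that no signal was there, since the lists hold called peaks and not coverage. From the edge of an absent site to the nearest overexpressed HoxC5 peak the distance ran from 4 to 581169 bp with a median of 8662 bp. It was under 100 bp at 25 sites (4.18%), under 500 bp at 71 (11.9%), under 10 kb at 310 (51.8%) and under 100 kb at 572 (95.7%). The nearest misses were in an intron of BCOR, which encodes a BCL6 corepressor (4 bp, fold 6.0), beside SCAF4, whose product binds the RNA polymerase II tail (7 bp, fold 5.93), in ABCA17P (20 bp, fold 6.5), in GRK1, the rhodopsin kinase gene (22 bp, fold 3.85), and at the start of the folate enzyme gene MTHFD1 (22 bp, fold 3.99). Just inside the other side of the rule, retained sites near PAX9, ADRM1, AGRN, CFAP410 and PRR4 shared 1, 2, 3, 4 and 13 bp with an overexpressed peak, and the endogenous fold there was 5.22, 4.76, 5.5, 18.2 and 4.72.

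The 18 absent sites called in both replicates included some of the strongest peaks of either list. The highest fold was in an intron of RAB19, a small GTPase gene (chr7:140117899-140118197), at 23.1 in replicate 1 and 12.1 in replicate 2. The site in an intron of APOLD1, an apolipoprotein L domain gene (chr12:12929219-12929640), had folds of 22.5 and 17.4 and ranked 14 of 2525 and 6 of 170 by q. The site in an intron of GRID2IP, which encodes a scaffold of a postsynaptic glutamate receptor (chr7:6543189-6543740), had folds of 19.8 and 15.4 and ranked 12 and 7. These sites stood near the head of both lists. They lay 60852, 2934 and 19167 bp from an overexpressed peak.

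Promoters were among them. The site at IGSF8, which encodes an immunoglobulin-family membrane protein (chr1:160068346-160068812), had its summit 53 bp from a transcription start site (TSS), folds of 14.6 and 15.6, and ranked 4 of 170 in replicate 2. The site at IL17C, an epithelial cytokine gene (chr16:88704820-88705055), was centred 25 bp from the TSS with folds of 9.43 and 7.55 and carried 5 E-boxes. Sites at LYNX1, a modulator of nicotinic receptors, and at the zinc-finger gene ZNF784 lay 44 and 155 bp from a TSS, with folds of 7.31 and 7.12 at the first and 4.27 and 6.30 at the second. The ZNF784 site was 62 bp from an overexpressed peak, the IL17C site 24287 bp.

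Other sites in both replicates lay in introns, and a few between genes, and some of these were also near a TSS. The SNED1 site was 56 bp and the LFNG site 786 bp from an annotated TSS. Of all 18 sites 8 (44.4%) were within 1 kb of one, as were 37 (31.6%) of the 117 retained sites in both replicates. At LFNG, the fringe glycosyltransferase that modifies Notch receptors (chr7:2563818-2564165), the folds were 15.5 and 7.32. GPC3, a cell-surface glypican (chrX:132810544-132810811), had 14.9 and 9.23. COL18A1, the collagen XVIII gene, had 6.54 and 7.19 at a site 369 bp from an annotated start, and SNED1, a matrix protein gene, 7.26 and 7.32. Further pairs of values were found at ACSS1, a mitochondrial acetyl-CoA synthetase gene (7.98 and 7.68), at VILL, a villin relative (6.17 and 6.61), and near SLC12A7, a potassium-chloride cotransporter gene (6.33 and 8.34). Replicate 1 gave the higher fold at 11 of the 18 sites, so neither replicate was uniformly higher.

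**Figure D1:**
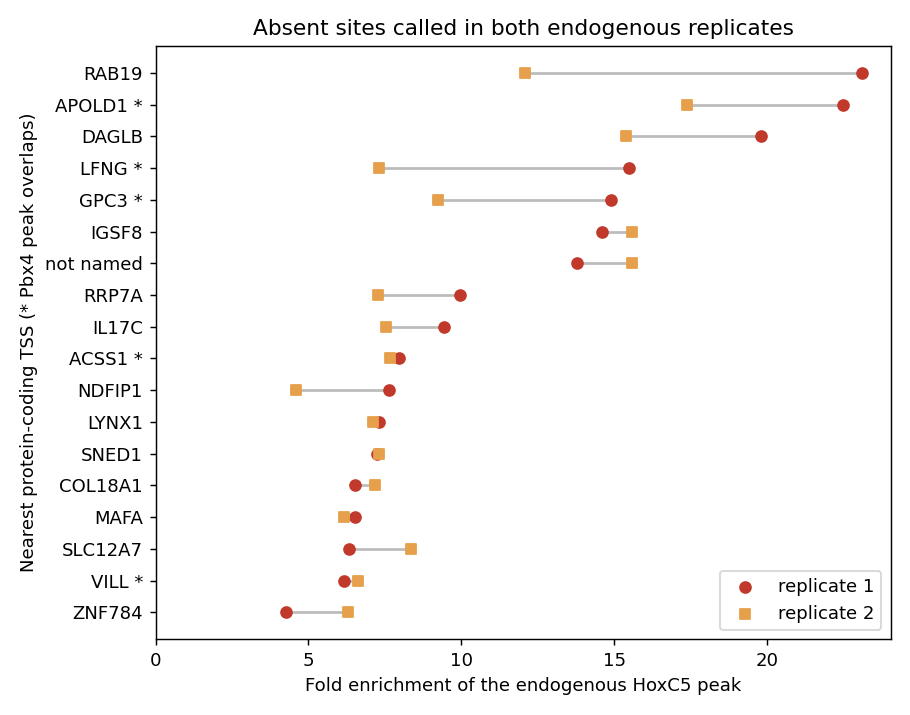
Fold enrichment (x axis) in endogenous HoxC5 replicate 1 (circles) and replicate 2 (squares) at the 18 absent sites called in both, named by the nearest protein-coding TSS except for 1 left without a name, with an asterisk where a Pbx4 peak overlaps. Values run from 4.27 to 23.1, and replicate 1 is higher at 11 sites.

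Repeated words marked these 18 sites, as was seen after their values were known. At least 2 E-boxes were held by 9 of the 18 and at least 2 GC boxes by 7, with GRID2IP holding both, so 15 of 18 (83.3%) held 1 of these words more than 1 time. Among the 117 retained sites in both replicates 33 (28.2%) did. The extremes were 12 E-boxes in 251 bp at chr8:144487417-144487667, 25.4 kb from MAFA, and 10 GC boxes in 467 bp at IGSF8. GC content of at least 50% was reached by 14 of the 18 (77.8%) and 59 of the 117 (50.4%). Of the 12-base stretches, the share that recurred inside the interval was 72.5% near MAFA, 43.3% in SNED1 and 42.4% at LYNX1. At IL17C and in APOLD1 it was 0. The 31 bases at the summit occur 3 times in the genome for the SNED1 site and 4 times for the LYNX1 site. Whether base composition or tandem repeats account for the word counts was not tested. A Pbx4 peak overlapped 5 of these 18 sites (27.8%) and 101 of the 117 retained ones (86.3%).

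Sites strong in replicate 1 alone were of mixed kinds. The lowest q of all absent sites was at chr17:61993935-61994741 near the growth hormone gene GH1 (fold 19.8, rank 11), where the 31 bases at the summit occur 165 times in the genome and reads cannot be placed uniquely from those bases alone. A site at chr5:119705072-119705376 in an intron of a long noncoding RNA had a fold of 23.5, 4 E-boxes and a Pbx4 peak of fold 7.26. In an intron of ARID3A, a DNA-binding protein gene (chr19:934922-935226), the fold was 14.0 and that of the Pbx4 peak 4.36. None of these 3 was called in replicate 2.

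Absent sites carried Pbx4 peaks less often than retained sites. A Pbx4 peak of the cells overexpressing Pbx4 overlapped 234 of 598 absent sites, 39.1% (95% exact binomial interval 35.2 to 43.2%), and 1587 of 1957 retained sites, 81.1% (79.3 to 82.8%). Over all endogenous sites the share was 71.3%. The difference was −42.0 percentage points (two-sided Fisher's exact test, adjusted p = 1.09e-80 over 5 features). Sites are not replicates of a condition, so this test compares 2 classes of 1 peak list and says nothing on the spread between cultures, and counting error is all that the interval covers. The Pbx4 list did not enter the rule that chose the sites.

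The difference was present in each class of peak strength. From the lowest to the highest q, 44.3%, 49.0%, 35.6%, 35.3% and 37.8% of absent sites had a Pbx4 peak, against 86.0%, 82.1%, 82.5%, 79.5% and 74.2% of retained sites. It was also present away from promoters, where 42.4% of absent and 94.2% of retained sites over 1 kb from a TSS had a Pbx4 peak (exact test, adjusted p = 4.00e-115). Within 1 kb of a TSS the gap was narrower, with a Pbx4 peak at 42 of 145 absent and 339 of 632 retained sites. That gap was not tested. Where a Pbx4 peak was present its median fold was 7.48 at absent and 9.22 at retained sites.

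**Figure D2:**
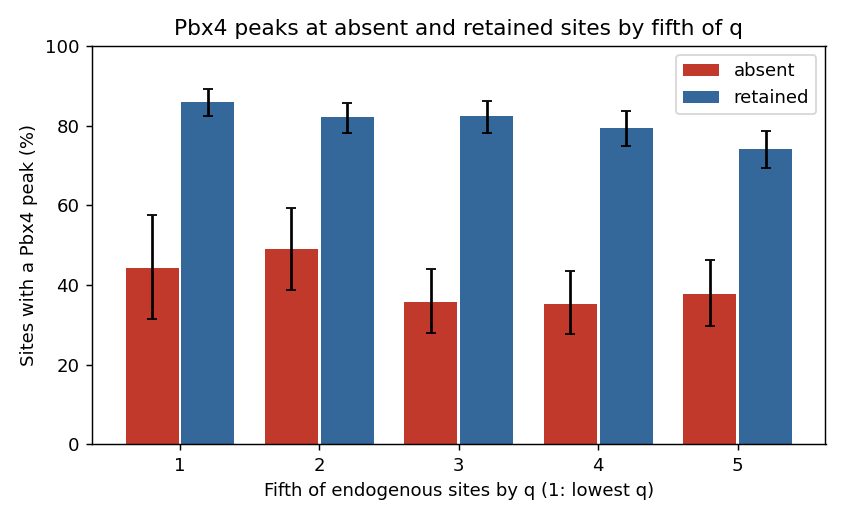
Share of absent and retained sites with a Pbx4 peak (percent, bars from 0) in each of 5 classes of endogenous sites ordered by q, with 95% exact binomial intervals. Absent sites are lower in every class, from 35.3% to 49.0% against 74.2% to 86.0%.

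Absent sites with strong Pbx4 peaks existed all the same. Among the highest was a Pbx4 fold of 20.2 in an intron of CCDC57, where endogenous HoxC5 had 10.1. That summit lay 363 bp from a TSS, and its 31 bases occur 4 times in the genome. Of the 12-base stretches there, 50.8% recurred inside the interval. The chromosome 17 intergenic site with 2 AP-1 words had a Pbx4 fold of 18.9 and a HoxC5 fold of 6.83. Sites 60.1 kb from the sorting-receptor gene SORL1 and in an intron of ALK, a receptor tyrosine kinase gene, had Pbx4 folds of 17.9 and 17.5 and HoxC5 folds of 5.88 and 6.5. These 4 lay at least 8549 bp from an overexpressed HoxC5 peak and none was called in endogenous replicate 2.

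Absent sites lay near a TSS somewhat less often. The summit was within 1 kb of an annotated TSS at 145 absent sites (24.2%) and at 632 retained sites (32.3%), a difference of −8.05 points (Fisher's exact test, adjusted p = 2.80e-04). For TSSs of protein-coding genes these numbers were 87 and 464. In the 170 peaks of replicate 2 alone the direction was the other one, at 44% of absent and 29.0% of retained peaks, without passing the test (exact test, adjusted p = 0.270). When sites were thinned to 1 per 1 Mb, the difference was −5.56 points and missed the threshold (exact test, adjusted p = 0.109). By annotation 325 absent summits (54.3%) lay in introns, 211 (35.3%) between genes, 29 in untranslated exons and 33 in other exons. GC content of at least 50% was found at 49.8% of absent and 52.6% of retained sites (exact test, adjusted p = 0.303), and 50.2% and 52.3% lay inside a protein-coding gene (adjusted p = 0.374).

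The promoter difference was unequal between sites with and without Pbx4. With a Pbx4 peak, 17.9% of absent and 21.4% of retained sites were within 1 kb of a TSS (exact test, adjusted p = 0.633). With none, 28.3% of 364 absent and 79.2% of 370 retained sites were, a difference of −50.9 points (exact test, adjusted p = 1.36e-44). GC content went the same way: 53.0% of absent and 91.4% of retained sites lacking Pbx4 reached 50% GC (−38.3 points, adjusted p = 1.10e-32), while 44.9% and 43.6% of those with Pbx4 did (exact test, adjusted p = 0.725). The odds ratios of absent against retained sites differed between sites with and without Pbx4 for both features, at 0.805 and 0.104 for the TSS (Breslow-Day chi-square test, adjusted p = 1.54e-16 over 7 features) and 1.05 and 0.107 for GC (adjusted p = 6.02e-20). Retained sites without Pbx4 were thus mostly GC-rich and near a TSS, whereas most absent sites without Pbx4 were over 1 kb from one. These splits by Pbx4 were chosen after the data had been seen.

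Repeated sequence was more frequent at absent sites. The 31 bases centred on the summit occurred more than 1 time in the genome at 60 absent sites (10.0%) and 45 retained sites (2.30%), a difference of 7.73 points (Fisher's exact test, adjusted p = 7.42e-14). Among the absent ones the median number of copies was 12, and 20 had over 100. The highest, 45894 copies, was in an intron of EIF2B3, which encodes a translation initiation factor subunit (chr1:45355377-45355529, fold 5.10). No Pbx4 peak overlapped 53 of the 60, or 14.6% of the absent sites that lack Pbx4, against 2.97% of such retained sites (exact test, adjusted p = 1.72e-08). With a Pbx4 peak the shares were 2.99% and 2.14% (exact test, adjusted p = 0.633), and the odds ratios of 1.41 with and 5.56 without Pbx4 differed (Breslow-Day chi-square test, adjusted p = 0.0147). Tandem repeats followed the same order as a description: at 27 absent (4.52%) and 9 retained sites (0.460%) at least 25% of the 12-base stretches recurred inside the interval. Reads of quality below the authors' limit were discarded, and how far placement of reads bears on these calls was not tested. Without the sites of repeated summit sequence, the Pbx4 shares were 42.2% and 81.2% (exact test, adjusted p = 2.66e-65).

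Of 16 short words counted within 50 bp of the summit, 3 differed between absent and retained sites. The AP-1 word was present at 40 absent sites (6.69%) and 369 retained sites (18.9%), a difference of −12.2 points (Fisher's exact test, adjusted p = 4.26e-13). The ETS word CCGGAAG, bound by ETS-family factors at many promoters, was at 4 absent (0.669%) and 68 retained sites (3.47%), with an adjusted p = 4.82e-04 by the same exact test. The E-box went the other way, at 135 absent (22.6%) and 326 retained sites (16.7%), a difference of 5.92 points (exact test, adjusted p = 0.00674). The other 13 words had adjusted p of 0.130 or more, among them the GC box at 5.35% and 6.23%, the forkhead word GTAAACA at 4.35% and 6.69%, and the NF-Y word CCAAT at 12.7% and 12.4%.

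Words of the Hox and Pbx families themselves were rare. The composite Hox-Pbx words TGATTGAT and TGATTTAT were within 50 bp of no absent summit, and TGATTAAT was at 2 (0.334%). In 598 sites, a count of 0 allows a share of up to 0.502% when 3 counts are taken as its limit, and the exact 95% interval reaches 0.615%. At retained sites these 3 words were at 6, 10 and 6 summits, and none differed from absent sites by the test. Within 100 bp, TGATTTAT was at 0 absent and 22 retained summits (1.12%) and in 7 flanks of absent sites (1.17%), and there it was less frequent at absent sites than at retained ones (Fisher's exact test, adjusted p = 0.0113) and than in the flanks (exact McNemar test, adjusted p = 0.0338). The homeodomain words TAATTA and TAATGA were at 6 (1.00%) and 12 (2.01%) absent sites, and the Meis word TGACAG at 32 (5.35%).

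Against windows of equal length 1 kb to the right of each absent summit, 4 words were more frequent and 2 less so. The E-box was at 22.6% of absent summits and 12.2% of their flanks (exact McNemar test, adjusted p = 1.16e-05), the GC box at 5.35% and 1.00% (1.16e-05), the AP-1 word at 6.69% and 2.01% (3.29e-04) and the forkhead word at 4.35% and 1.67% (0.0363). TAATTA, at 1.00% and 3.18% (0.0390), and TAATGA, at 2.01% and 5.18% (0.0173), were less frequent at the summit. Both are AT-rich, and the call for TAATTA was lost against the left flank (exact test, adjusted p = 0.381). The directions were not particular to absent sites. Retained summits and their right flanks held the E-box at 16.7% and 9.96%, the GC box at 6.23% and 1.12%, and the AP-1 word at 18.9% and 1.89%. The forkhead word was there at 6.69% and 1.53%, TAATTA at 1.48% and 3.42%, and TAATGA at 3.68% and 4.85%. Of these only TAATGA missed the threshold (exact McNemar test, adjusted p = 0.129).

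The E-box shares are given by class of q as a description, and the classes were not tested against each other. In the class of lowest q 49.2% of absent and 24.0% of retained summits had an E-box. In the next classes the shares were 29.6% and 16.7%, 21.2% and 17.3%, 16% and 12.7%, and 14.7% and 10.9%. Among sites with a Pbx4 peak 32.1% of absent and 18.3% of retained summits had one (exact test, adjusted p = 4.67e-05), and among those without 16.5% and 9.73% (adjusted p = 0.0335). Over 1 kb from a TSS the shares were 23.6% and 19.8%, which missed the threshold (exact test, adjusted p = 0.300), as did those over the whole interval, 33.9% and 29.6% (adjusted p = 0.110).

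Absent intervals also held several E-boxes more often, described here without a test because it was noticed in these values. At least 2 were in 87 absent (14.5%) and 118 retained intervals (6.03%), at least 3 in 42 (7.02%) and 25 (1.28%), and at least 5 in 11 and 0. After the 12 copies near MAFA came 9 at chr7:2533521-2533810, in a tandem repeat 17.6 kb from GRIFIN, and 7 at chr19:30186227-30186406 near C19orf12. The MAFA site is a tandem repeat too, with 72.5% of its 12-base stretches recurring inside the interval. How much tandem repeats add to these E-box counts was not tested. The Alu repeat carries this word too: a stretch of Alu, TGTAATCC, was in 36 absent (6.02%) and 44 retained sites (2.25%). Without such sites the E-box was at 21.7% of absent and 15.9% of retained summits (exact test, adjusted p = 0.00964). Only sites holding this stretch were dropped, so other Alu sequence may remain.

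Split by Pbx4, the other words gave mixed results. Among sites with a Pbx4 peak 12.8% of absent and 22.4% of retained summits held the AP-1 word (exact test, adjusted p = 0.00463), while without Pbx4 the shares were 2.75% and 3.51% (adjusted p = 0.979), and the odds ratios of 0.509 and 0.776 were not distinguishable (Breslow-Day chi-square test, adjusted p = 0.518). Over 1 kb from a TSS the AP-1 shares were 7.73% and 24.0% (exact test, adjusted p = 1.58e-14). The GC box and ETS word were less frequent at absent sites among those with no Pbx4 peak, at 7.97% of absent and 20.5% of retained summits for the GC box (exact test, adjusted p = 5.13e-06) and 0.275% and 10.0% for the ETS word (adjusted p = 1.92e-09). With a Pbx4 peak the ETS shares were 1.28% and 1.95% (exact test, adjusted p = 0.921). Over 1 kb from a TSS they were 0.442% and 1.28% (exact test, adjusted p = 0.396). Between sites with and without Pbx4 the odds ratio differed for the ETS word (Breslow-Day chi-square test, adjusted p = 0.00150) but not detectably for the GC box (0.682) or the E-box (0.682).

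The genes around the absent sites came from many pathways. A summit of an absent site lay within 100 kb of a TSS of 1414 of 19807 protein-coding genes (7.14%), and of a retained site for 4005 (20.2%). Across 18 gene lists, the share of genes with an absent site ran from 0 of 12 MYC and MAX network genes and 0 of 19 MAP kinase feedback genes to 6 of 22 WNT ligands and receptors (27.3%). The WNT genes were WNT3A, WNT4, WNT7B, FZD2, FZD8 and LRP5, and 5 of the 22 had a retained site. For TGF-β and BMP signalling the counts were 3 of 36 with an absent site (the corepressor SKI and the latent TGF-β binding proteins LTBP1 and LTBP2) and 16 with a retained one, and for AP-1 genes 1 of 12 (FOS) and 7. No list was tested, and neighbours share sites: 6 HOXB genes have the same one, chr17:46583280-46583461, at fold 4.68, and HOXB13, a prostate homeobox gene, has another, 22.7 kb from its TSS, at fold 4.08.

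An absent summit lay within 1 kb of a TSS of 95 of all 19807 protein-coding genes, and of 1 gene of these lists, SIN3A, the corepressor scaffold, at 0.409 kb and fold 6.44. FOXQ1, a forkhead factor gene, had one at 1.39 kb (fold 5.44), HES1, a Notch-responsive repressor gene, at 1.63 kb (4.63), HDAC1, a histone deacetylase gene, at 2.61 kb (6.40, with a Pbx4 peak) and MEIS2, a TALE cofactor gene, at 3.99 kb (5.08). Inside CDKN1A, the p21 cell cycle inhibitor gene, a site 4.16 kb from the TSS had a fold of 3.99 and a Pbx4 peak. The largest value near a list gene after that of APOLD1, which lies 58.6 kb from CDKN1B, was 8.68 for a site 39.7 kb from CDK2. In an intron of WNT3A a site had a fold of 7.98 and a Pbx4 peak. Except for the APOLD1 site, these were called in replicate 1 alone.

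In 2 places absent sites clustered, counting 1 Mb bins with at least 4. On chromosome 7 between 2 and 3 Mb there were 4 absent sites and 1 retained site. They span positions 2533521 to 2567638, with folds of 7.98, 5.10, 15.5 and 4.43 from left to right, and the last 3 lie 0.913 kb from a TSS, in an intron and in an untranslated exon of LFNG, the Notch glycosyltransferase gene named above. Pbx4 peaks overlapped the latter pair. On chromosome 2 between 135 and 136 Mb there were again 4 absent sites and 1 retained site, with folds of 4.98 in MGAT5, a glycan-branching enzyme gene, 5.0 near TMEM163, and 6.30 and 5.08 at and near CCNT2, the cyclin T2 gene, and 1 of them had a Pbx4 peak.

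The list of replicate 2 alone gave a partly different picture. Its peaks included 25 with no overexpressed peak and 145 with one. The Pbx4 shares, 40% and 88.3%, differed as in the merged set (exact test, adjusted p = 2.62e-06). At least 50% GC was reached by 72.0% of the absent and 42.8% of the retained peaks (exact test, adjusted p = 0.0219), and a GC box lay within 50 bp of 32.0% and 6.21% of the summits (adjusted p = 0.0117). In the merged set, most of which is replicate 1, neither passed the test, and replicate 1 and replicate 2 differ 2525 to 170 in the number of peaks. The AP-1, ETS and E-box words, which differed in the merged set, did not pass the exact test in replicate 2. Absent and retained summits there held the AP-1 word at 4.00% and 15.9%, the ETS word at 0% and 1.38%, and the E-box at 32.0% and 23.4%.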

How the data were processed

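Reads were single-end. The authors placed them on hg19 using BWA-MEM, discarded poorly mapped and duplicate reads, and ran the MACS2 peak caller on each library at a q limit of 0.05. The MACS2 version and control are not given in the sources used here, and the overexpressed HoxC5 list holds no peak of q above 0.00997. The deposited peak files hold, per peak, a score, the fold enrichment as a ratio, and −log10 p-values and q-values. The score and p-value were not used. The study's methods give an average depth over its libraries, but read totals per library are not part of these files, so the depth behind each list is unknown. The 4 input libraries have no peak list and were not used.

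Here the HoxC5 intervals were merged where they shared a base, and overlap of 1 bp counted as present. The summit of a site was that of its peak of lowest q. TSSs and gene parts were taken from GENCODE release 44 mapped to GRCh37 (hg19), and sequence from the GRCh37 reference. The 31 bases at each summit were counted over the whole reference, both strands. For 5 features and 16 words, absent and retained sites were compared by two-sided Fisher's exact tests. The same comparison was also pooled over classes of q by the Mantel-Haenszel test. For the words, summits and flanks were compared by exact McNemar tests. Odds ratios with and without Pbx4 were compared by the Breslow-Day test for 7 features. Each family had Benjamini-Hochberg adjustment and a threshold of 0.05. Intervals of shares are Clopper-Pearson 95% intervals. The scripts (Python 3.11.15, scipy 1.17.1, statsmodels 0.14.6, pysam 0.24.0) were tested on simulated data.

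The sites named were all absent sites in both replicates, the 10 and 5 of lowest q in replicates 1 and 2, the 5 on each side of the rule nearest to it, the 5 of highest Pbx4 fold, sites near genes of 18 lists, and 1 Mb bins of at least 4 absent sites, except 2 that are not reported here. Sites with many E-boxes or genome copies, and the splits by Pbx4, were chosen after their values were seen. The members, lists and words were chosen with earlier results of these data known. That the libraries come from separate cultures is not stated, so replicate differences may be technical.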

Additional observations from a re-analysis of the deposited data

How the results depend on the processing

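The lower Pbx4 share of absent sites was past the threshold under every alternative tried, from −51.8 to −39.0 points. Sites within 1 kb of a TSS, where the gap was narrower, were not among these alternatives. Leaving out either endogenous replicate gave 25 to 592 absent sites, the lower number without replicate 1. The count was 354 with endogenous peaks of fold at least 5 and 936 when overexpressed peaks of fold under 5 were dropped. With 1 replicate left out, the difference between absent and retained sites ran from −8.31 to 15 points for TSSs within 1 kb, −3.23 to 29.2 for GC content of at least 50%, 2.62 to 7.80 for repeated summit sequence, −1.94 to 9.52 for protein-coding genes and −1.09 to 25.8 for the GC box word, with the positive end always in the 170 peaks of replicate 2 except for repeated sequence, whose lower end was there. The TSS difference lost its call at 1 site per 1 Mb (−5.56), at 5 kb (−4.53) and among sites with Pbx4 (−3.41). The GC difference gained one where no overexpressed peak lay within 500 bp (−5.72) and among sites with no Pbx4 peak (−38.3), and turned to 1.27 with Pbx4. Repeated summit sequence lost its call among sites with Pbx4 (0.849) and in replicate 2 alone (2.62), where the TSS difference (15) did not pass either. Words that differed from retained sites numbered 6 within 100 bp of the summit, 1 over 1 kb from a TSS (where the GC box turned to 0.117 points) and 1 to 3 with a replicate left out. Words that differed from the flank numbered 3 within 25 bp and 0 to 6 with a replicate left out. At 0, in the 25 peaks of replicate 2, no word passed the exact McNemar test. The cause of these changes was not tested, and the subsets also hold fewer sites. No paired analysis was possible because the overexpressed conditions have 1 library each and the endogenous replicate numbers are shared only with inputs, which have no peak list. The planned comparison of soft-masked bases was not run, since the reference used is not soft-masked. Without read counts, a site just under the caller's limit cannot be told apart from one with no signal.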
